A study of Mus musculus with 12 samples.

Results

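The histone cluster genes were the genes whose symbols start with Hist1h, Hist2h, Hist3h or Hist4h, the older mouse names of the histone genes that lie in clusters. They were picked from the tables by symbol alone, 71 of 46517 genes in the osteoclast table and 70 of 53715 in the main table of periosteal stem cells (PSCs). The family was selected on earlier results of these data, in which Hist1h2al was among the few genes called in osteoclasts, so the values of Hist1h2al are a description and no support for anything else. The osteoclast table held 6 H1, 20 H2A, 20 H2B, 12 H3 and 13 H4 members, and the PSC table held 19 H2B members and the same numbers of the other classes. The difference was Hist2h2bb, which the osteoclast table lists as Hist2h2bb_1 and Hist2h2bb_2. Of the PSC members, 56 carry a Hist1 name, of which 55 lie near each other on chromosome 13 and 1, Hist1h2al, lies elsewhere on it. The others are 10 in Hist2 on chromosome 3, 3 in Hist3 on chromosome 11 and 1 in Hist4 on chromosome 6.

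RNA was sequenced from osteoclasts and from sorted PSCs of C57BL/6 mice, 6 libraries of each cell type, of which 3 carry the label control and 3 the label cKO. The osteoclasts came from bone marrow cells of mice of 11 weeks, grown with M-CSF and then for 72 h with RANKL, the cytokine under which they fuse into osteoclasts. The cKO cells were Prmt5 flox/Δ Ctsk-Cre, in which Cre is driven by the cathepsin K gene, and the sources used here do not say whether the control mice of the osteoclast libraries carried Ctsk-Cre. The PSCs came from mice of 3 to 6 weeks, and both groups carried Ctsk-Cre and CAG-CAT-EGFP, a reporter that turns cells green after Cre has acted. At Prmt5 the cKO mice were flox/Δ and the control mice flox/+. They were sorted as EGFP+ cells that were CD51+ and CD200+ and lacked Ter119, CD31, 6C3, CD45, CD90 and CD105. The study's legends give as many PSC mice per group as there are libraries, but do not tie a library to a mouse, and give no number of mice for the osteoclast libraries. The p-values therefore measure the spread between libraries, which for osteoclasts may be technical.

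The clustered histone genes supply the bulk histones that package newly copied DNA, and most of them are transcribed in S phase. They have no introns in their main form, and their mRNAs end in a conserved stem-loop bound by SLBP instead of a poly(A) tail, although some members also make polyadenylated transcripts. H2A, H2B, H3 and H4 form the core of the nucleosome and H1 binds the linker DNA. PRMT5 is an arginine methyltransferase that places symmetric dimethylation on the tails of histones H2A, H3 and H4 and on many non-histone proteins.

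A stem-loop was looked for after the stop codon of every member annotated by GENCODE on GRCm38, as 6 base pairs that start with GG around a loop of 4 bases that starts with TT, with 1 G-T pair allowed. It was found in 44 of 70 members, between 21 and 58 bases after the stop codon (median 31). Of the 26 others, 15 were annotated with under 20 bases after the stop codon. The sequences show the forms that differ, with the stem-loop in capitals and 5 bases on each side, or fewer where the annotated transcript ends. They were read 5′ to 3′ from the annotated transcripts.
Hist1h1c: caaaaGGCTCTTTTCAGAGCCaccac
Hist2h2aa1: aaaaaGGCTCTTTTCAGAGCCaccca
Hist1h2ap: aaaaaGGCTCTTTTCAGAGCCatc
Hist2h2ac: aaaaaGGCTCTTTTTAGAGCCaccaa
Hist1h2bb: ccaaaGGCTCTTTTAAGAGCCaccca
Hist1h3f: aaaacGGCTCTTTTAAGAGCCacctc
Hist1h4d: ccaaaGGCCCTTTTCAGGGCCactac
Hist1h4i: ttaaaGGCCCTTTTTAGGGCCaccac
The form of Hist1h1c was the most frequent, with 26 members of the H1, H2A, H2B and H3 classes. The H4 members kept to forms of their own: 7 had that of Hist1h4d, 2 that of Hist1h4i, and 2 had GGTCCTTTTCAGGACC. No H4 member had a form seen in another class. The stem-loop of Hist1h1c lies at chr13:23739512-23739527 and that of Hist1h4i at chr13:22040966-22040981.

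What lay past the stem-loop differed among members. The annotated transcript went on for 200 bases or more in 18 members, for example for 840 bases in Hist1h1c and 1643 in Hist3h2a, and stopped within 200 bases in 26, for example after 3 bases in Hist1h2ap. Hist1h2bc was annotated with 2 exons, and no stem-loop was found in its transcript. In all, 65 of the 70 members had 1 exon. Many copies could hardly be told apart by sequence. Hist1h2ao and Hist1h2ap had the same coding sequence, as did Hist1h2bq and Hist1h2br, Hist1h4m and Hist1h4n, and Hist2h2aa1 and Hist2h2aa2.

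The promoters also differed by class. RefSeq promoters on GRCm38.p6, from 250 bases before to 50 after the start, were matched for 62 of the 70 members and searched on both strands. CCAAT was in 6 of 6 H1, 18 of 18 H2A, 16 of 16 H2B and 10 of 10 H3 promoters and in 3 of 12 H4 promoters, against 37.9% of 27025 promoters in all. The octamer ATGCAAAT was in 7 of 18 H2A and 6 of 16 H2B promoters, in no other class, and in 1.75% of all promoters. TATAA was in 79.0% of the members' promoters and 25.5% of all. A pair shows the difference, the 250 bases before the start of an H2B member that stood among the highest in osteoclasts and those of the H4 member called in PSCs. Capitals mark CCAAT, the octamer and TATAA on either strand, and TATAA overlaps its own reverse where both stand together.
Hist1h2bb: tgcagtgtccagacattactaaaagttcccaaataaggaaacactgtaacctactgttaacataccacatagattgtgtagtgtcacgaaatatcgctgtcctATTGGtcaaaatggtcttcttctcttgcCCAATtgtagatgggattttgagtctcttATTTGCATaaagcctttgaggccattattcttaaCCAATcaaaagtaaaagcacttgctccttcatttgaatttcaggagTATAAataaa
Hist1h4i: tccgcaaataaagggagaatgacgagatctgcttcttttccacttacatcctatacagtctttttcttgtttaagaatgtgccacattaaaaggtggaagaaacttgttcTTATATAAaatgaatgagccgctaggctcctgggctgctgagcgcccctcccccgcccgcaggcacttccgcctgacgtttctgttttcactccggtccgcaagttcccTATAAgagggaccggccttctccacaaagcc
The first lies at chr13:23746484-23746733 on the plus strand and the second at chr13:22041363-22041612 on the minus strand. The motifs are matches of letters and were not tested as binding sites.

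Osteoclast libraries held between 984885 and 3608940 counts, and cKO 2 and 3 were the shallowest. The PSC libraries held between 6958265 and 13928745 mapped reads, as implied by the steps of the RPKM values. Prmt5 had 58.5, 71.7 and 67.6 CPM (counts per 1000000 counts, after TMM scaling, which adjusts for library composition) in control against 28.8, 37.8 and 35.3 CPM in cKO osteoclasts. RPKM are reads per kilobase of exon and per 1000000 mapped reads. In PSCs the libraries labelled cKO had 8.40, 6.31 and 8.08 RPKM over the whole gene, beside 6.29, 8.31 and 4.32 RPKM for the controls. The whole-gene level therefore did not separate the PSC groups in these libraries, and PSC directions are given by label. The study itself reports lower Prmt5 mRNA and protein in PSCs of the cKO mice. Osteoclast markers such as Acp5 and Ctsk were high in all osteoclast libraries, where the 8 markers summed to 20101 to 31258 CPM, and the gate markers Ctsk, Itgav, Cd200, Postn, Prrx1 and Col1a1 summed to 6671 to 13639 RPKM in the 5 PSC libraries of the main table. The third PSC control was deposited in a table of its own, and its r with the other libraries was 0.842 to 0.860, where the others had 0.948 to 0.982 with each other (Pearson, across genes, which are not independent).

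The members took 0.352% to 0.422% of all counts in osteoclasts and 0.0136% to 0.0195% of mapped reads in PSCs. Cell type, input, table and counting differ together here, so they cannot be told apart as the source of this gap. In osteoclasts the level was spread over many members. 68 of 71 had counts, 51 had at least 10 in every library, and the 5 highest held 28.6% of the summed CPM. In PSCs 5 members held 80.0% of the summed RPKM, 52 of 70 had a mean RPKM under 1, and 13 were listed at 0 in all 5 libraries. Those 5 were Hist1h2bc, Hist1h1c, Hist2h2aa1, Hist1h2ap and Hist3h2a. In bulk samples fewer cells in S phase and less histone RNA per cell cannot be told apart. How far the libraries captured histone mRNAs without a poly(A) tail was not tested.

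**Figure D1:**
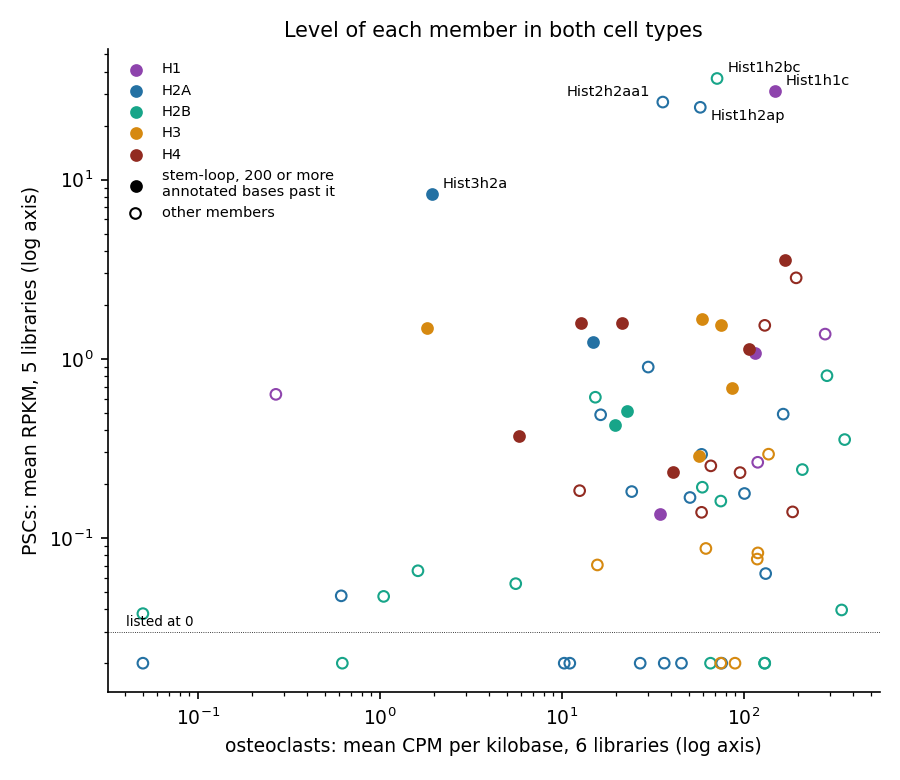
Each point is 1 member, with its mean CPM per kilobase over the 6 osteoclast libraries on the x axis and its mean RPKM over 5 PSC libraries on the y axis, both log axes, coloured by class; points under the dotted line were listed at 0 in PSCs, and the points at the left edge had no count in osteoclasts. Filled points have a stem-loop with 200 or more annotated bases past it, and Hist1h2bc, Hist1h1c, Hist2h2aa1 and Hist1h2ap stand above 20 RPKM.

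Per length, the order of members was different in each cell type. In osteoclasts the highest were the H2B genes Hist1h2bj (359 CPM per kilobase) and Hist1h2bb (346), followed by another H2B gene, Hist1h2bg (287), and the linker histone gene Hist1h1b (281). Hist3h2a, which encodes an H2A, had 1.95 CPM per kilobase in osteoclasts and a mean of 8.28 RPKM in PSCs, where it was the fifth highest. Of the 18 members with 200 or more annotated bases past the stem-loop, 11 had a mean of at least 1 RPKM in PSCs, against 4 of the 26 with a shorter annotated end. In osteoclasts 16 of the 18 and 24 of the 26 passed the filter on low counts. Lengths are those of the annotation, so a long annotated transcript such as that of Hist1h1d (34.6 CPM per kilobase from a mean of 257 CPM) lowers the value per length even if short transcripts gave the reads.

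Whether loss of Prmt5 in Ctsk-Cre cells goes with a change of histone gene RNA in osteoclasts was examined first, since osteoclasts had the deeper coverage of the family. The summed level of all members was 3702, 3818 and 4119 CPM in control against 3772, 4344 and 3601 CPM in cKO libraries. The cKO libraries lay on both sides of the controls, and the groups overlapped in every class too. H1 genes summed to 973, 962 and 1092 CPM in control against 963, 1151 and 923 CPM in cKO. H2A genes summed to 410, 472 and 499 CPM against 473, 427 and 456 CPM. H2B genes, the class with the highest sum, had 1109, 1163 and 1190 CPM against 1053, 1160 and 1017 CPM. The groups overlapped in each of these classes. H3 genes had 586, 612 and 643 CPM against 618, 710 and 574 CPM. H4 genes had 624, 610 and 695 CPM against 666, 897 and 630 CPM, with cKO 2 above all other libraries. The log2 ratio of the mean sums was between -0.10 (H2B) and 0.19 (H4), and without cKO 2 the H4 ratio was 0.01.

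**Figure D2:**
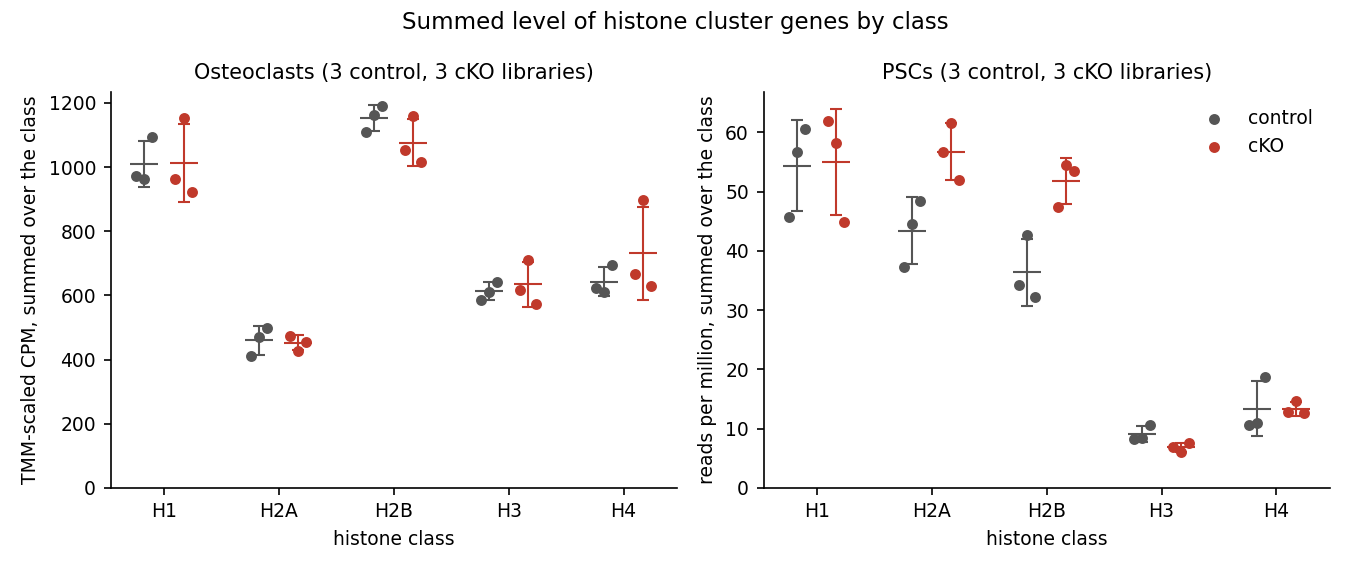
Points are libraries, dashes are means and bars are SD (n = 3 per group), for osteoclasts as CPM and for PSCs as RPM (exon reads per 1000000 mapped reads), each summed over the members of a class; grey is control and red is cKO, as labelled. In osteoclasts the groups overlap in all 5 classes, and in PSCs they do not overlap in H2A, H2B and H3. Reads of PSC control 3 were counted over another exon length for 22 members.

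Gene by gene, 61 of the 71 members passed the filter on low counts and were tested among 10724 genes with edgeR. Adjusted p was under 0.05 for 1 of the 61, Hist1h2al, where 0.0373% of all genes tested passed (0.0186% higher and 0.0186% lower in cKO). The median log2 fold change of the 61 members was 0.04, beside 0.00 for all genes tested, and 34 were above 0 and 27 below. An unadjusted p under 0.05 was found for 10 of the 61, where 4.76% of all genes had one. Libraries of the groups did not overlap for 10 members, 2 with cKO above and 8 with cKO below, where 10.6% of all genes did not overlap (5.03% above and 5.53% below). The 8 were Hist1h2an, Hist2h2ac, Hist1h2bb, Hist1h2bf, Hist1h2bj, Hist1h2bk, Hist1h3c and Hist1h3f, all with cKO levels lower by less than 1 on the log2 scale and none called. Hist1h2al and Hist2h3b were under the filter level in 1 or more control libraries and in no cKO library. Hist1h2an, Hist1h4i and Hist2h2ab were under it in 1 or more cKO libraries and in no control library. Such members tend to differ by the filter itself, so these counts are a description and support nothing further.

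**Figure D3:**
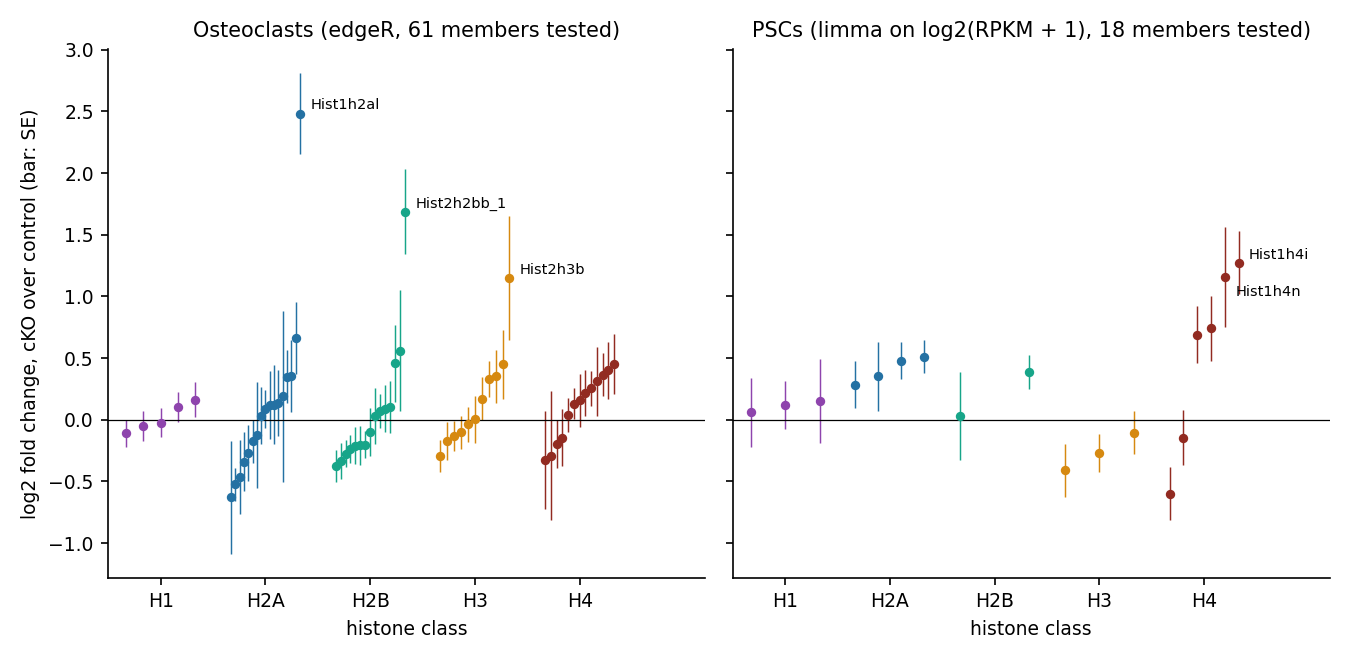
Log2 fold change of cKO over control with its SE for each member tested, ordered within its class, in osteoclasts (left) and PSCs (right, on the log2(RPKM + 1) scale). Hist1h2al (2.48) and Hist2h2bb_1 (1.69) stand highest among osteoclast members, and Hist1h4i (1.27) among those of PSCs.

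Hist1h2al, named as an H2A gene, had 5, 10 and 15 counts in control against 79, 25 and 20 in cKO libraries. Scaled, this was 2.0, 3.88 and 5.22 CPM against 21.7, 21 and 20.8 CPM, with edgeR giving an adjusted p of 0.0101 over all genes and a log2 fold change of 2.48 (SE 0.327). Of the controls, 1 reached the level of the filter (3.91 CPM), so Hist1h2al entered the test through the cKO libraries. Every cKO library stood above every control library, and the cKO libraries were close to each other after scaling despite their different depth. The call was lost without control 2 (adjusted p = 0.0951 in edgeR) or cKO 3 (adjusted p = 0.0554 in edgeR), with nearly the same log2 fold changes (2.50 and 2.49). GENCODE places it at chr13:51202727-51203065 on the minus strand and annotates it as a processed pseudogene, apart from the Hist1 cluster on that chromosome. Its 339 annotated bases align without a gap to bases 16 to 354 of the coding sequence of Hist2h2aa1, and thus of Hist2h2aa2, with 2 differences. Counted from the first base of the Hist2h2aa1 start codon, with the Hist2h2aa1 base first, these were T135C and G231T. The stretches around both are shown because they hold the only differences over the aligned bases, with the base that differs in capitals.
Hist1h2al at T135C: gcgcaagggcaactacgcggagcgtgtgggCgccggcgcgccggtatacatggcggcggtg
Hist2h2aa1 at T135C: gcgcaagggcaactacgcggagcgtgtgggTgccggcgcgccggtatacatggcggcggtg
Hist1h2al at G231T: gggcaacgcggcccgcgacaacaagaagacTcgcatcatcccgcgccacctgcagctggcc
Hist2h2aa1 at G231T: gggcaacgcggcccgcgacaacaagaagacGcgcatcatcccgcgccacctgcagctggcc
The Hist2h2aa1 stretches lie at chr3:96245685-96245745 and chr3:96245781-96245841 on the plus strand, and those of Hist1h2al at chr13:51202916-51202976 and chr13:51202820-51202880.

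A read from within these bases that covers neither difference fits all 3 genes, so their counts are uncertain as separate values. Hist2h2aa1 had 19.2, 11.6 and 22.3 CPM in control against 15.9, 33.6 and 23.9 CPM in cKO libraries. Hist2h2aa2 had 16.4, 12 and 24.7 CPM against 19.7, 40.3 and 31.2 CPM, 0.67 higher on the log2 scale (SE 0.292), with an adjusted p of 0.950 in edgeR. The groups overlapped for both. The sum of the 3 genes was 37.7, 27.5 and 52.2 CPM in control against 57.3, 94.9 and 75.8 CPM in cKO, again without overlap. Entered in the fit as 1 row, an alternative chosen after seeing the data, the sum had a log2 fold change of 0.90 (SE 0.217, unadjusted p = 0.000747, adjusted p = 0.867 in edgeR) and was not called.

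**Figure D4:**
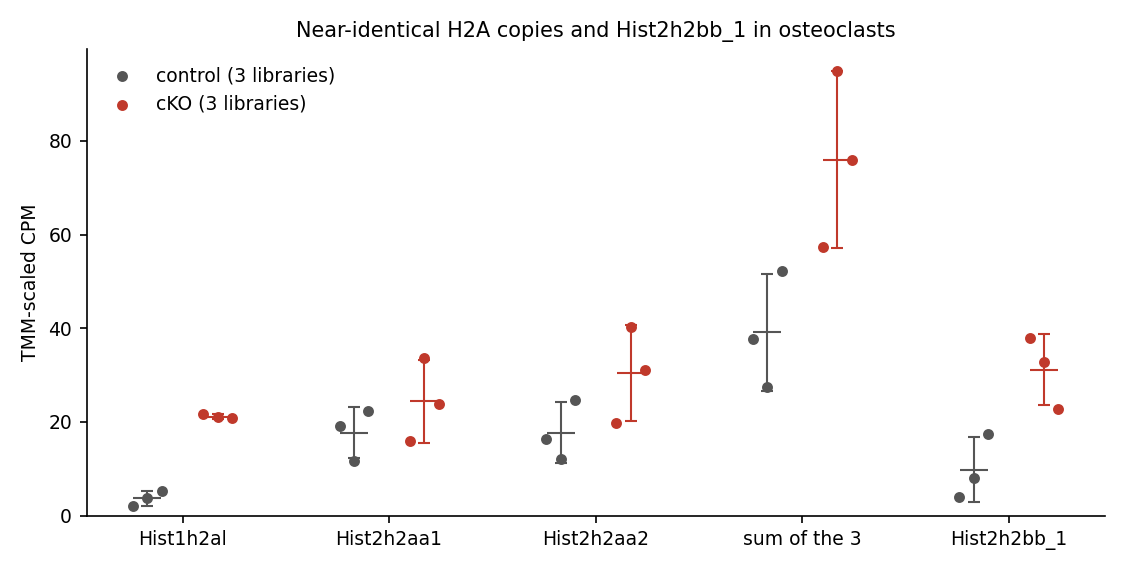
TMM-scaled CPM in each osteoclast library (points), with mean and SD (n = 3 per group), for Hist1h2al, its near-identical genes Hist2h2aa1 and Hist2h2aa2, the sum of these 3, and Hist2h2bb_1. The groups are apart for Hist1h2al, the sum and Hist2h2bb_1 and overlap for the other two.

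Among other H2A genes, Hist2h2ac of the Hist2 cluster had 77.3, 82.6 and 84.6 CPM in control against 60.9, 47.0 and 60.2 CPM in cKO libraries. All cKO libraries were lower (log2 fold change -0.52, SE 0.134, unadjusted p = 0.00128, adjusted p = 0.876 in edgeR), and it did not pass. Hist1h2ab had 71.3, 97.7 and 83.9 CPM against 90.5, 50.4 and 74.8 CPM, with both groups spread over the same range.

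Of the H2B genes, Hist2h2bb_1 had 10, 21 and 50 counts in control against 138, 39 and 22 in cKO libraries, or 4.01, 8.14 and 17.4 CPM against 37.8, 32.8 and 22.9 CPM. All cKO libraries were higher (log2 fold change 1.69, SE 0.345, adjusted p = 0.234 in edgeR), and it passed without control 3 (log2 fold change 2.41, adjusted p = 0.00547) and not otherwise when a library was left out. The other copy, Hist2h2bb_2, had no count in any library. Hist2h2bb lies at chr3:96269752-96270132. Of the 15 H2B members tested, 4 stood lower in every cKO library by small amounts, and 7 had a log2 fold change above 0. Hist1h2bj and Hist1h2bb, the highest per length, were among the 4, while the groups overlapped for Hist1h2bg, the next highest. Hist1h2bb had 181, 190 and 206 CPM in control against 162, 143 and 172 CPM in cKO. Hist1h2bj had 166, 175 and 192 CPM against 150, 154 and 162 CPM. Hist1h2bf had 72.5, 67.4 and 64.4 CPM against 53.5, 48.7 and 55.1 CPM. Their groups did not overlap, with log2 fold changes of -0.27 (SE 0.110), -0.20 (SE 0.107) and -0.37 (SE 0.133), and none passed (adjusted p = 0.950 in edgeR for each).

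The H1 genes differed little between groups. Hist1h1c, a linker histone gene active in many tissues, had 232, 196 and 227 CPM in control against 203, 318 and 220 CPM in cKO, with cKO 2 highest. Hist1h1b had 183, 214 and 239 CPM against 193, 224 and 199 CPM. Among the H3 genes, Hist1h3b had 60.1, 57.7 and 77.0 CPM against 77.6, 94.1 and 75.8 CPM, and Hist2h3b had 3.6, 5.43 and 3.83 CPM against 4.11, 17.6 and 11.4 CPM. Both overlapped between groups and had an adjusted p of 0.950 in edgeR. Hist1h3c had 77.7, 77.5 and 82.9 CPM against 75.7, 74.7 and 64.4 CPM, and Hist1h3i had 58.5, 59.7 and 57.1 CPM against 53.7, 60.5 and 48.8 CPM. Of the H4 genes, Hist1h4f had 56.9, 56.6 and 74.5 CPM against 68.5, 109 and 70.6 CPM and Hist1h4h had 92.1, 76.0 and 83.6 CPM against 102, 119 and 75.8 CPM. In both, cKO 2 was the highest library, as in the H4 sum.

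The genes that make and carry histones gave no call in osteoclasts. Of the genes for histone mRNA ends, histone transcription and histone chaperones, 19 of 21 were tested and none was called or had an unadjusted p under 0.05 in edgeR, and their median log2 difference was -0.09. The 2 with the smallest p were Chaf1b and Chaf1a, subunits of the chaperone that places H3 and H4 on new DNA. Chaf1b had 76.5, 84.9 and 70.0 CPM in control against 84.2, 91.5 and 104 CPM in cKO, and Chaf1a had 31.6, 28.7 and 41.8 CPM against 27.1, 29.4 and 20.8 CPM. Of the histone variants outside the clusters, 9 of 12 were tested and none was called, with 3 at an unadjusted p under 0.05. H2afy, which encodes macroH2A, had 96.9, 92.6 and 101 CPM in control against 108, 119 and 122 CPM in cKO, and H2afz, which encodes H2A.Z, had 181, 139 and 157 CPM against 157, 256 and 198 CPM.

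All 23 S phase and cycling genes were tested and none was called or had an unadjusted p under 0.05 in edgeR, and they summed to 2693 to 3311 CPM in control against 2504 to 3041 CPM in cKO libraries. Prim1, a primase subunit, had 27.6, 27.1 and 31.3 CPM against 23.9, 23.5 and 13.5 CPM, and Mki67, a proliferation marker, had 588, 550 and 672 CPM against 595, 459 and 496 CPM. Of the 7 genes of the PRMT5 pathway, Prmt5 was called (log2 fold change -1.01, SE 0.160, adjusted p = 0.0349 in edgeR). All cKO libraries were lower, and without control 2, control 3, cKO 1 or cKO 3 the adjusted p in edgeR was 0.281, 0.116, 0.103 and 0.132. Prmt7, another arginine methyltransferase, had 56.9, 63.2 and 58.2 CPM against 61.4, 82.3 and 68.6 CPM. Of the osteoclast markers, the 2 with the smallest p were Ctsk, with 9119, 8509 and 5632 CPM against 4483, 4644 and 4489 CPM, and Ocstamp, with 211, 214 and 170 CPM against 243, 338 and 278 CPM, and neither passed (adjusted p = 0.234 and 0.876 in edgeR). The groups did not overlap for either. Neutrophil markers summed to 500 to 696 CPM in control against 495 to 706 CPM in cKO, and macrophage markers to 3253 to 3594 and 3685 to 4099 CPM.

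In PSCs, the summed level of the members was 129 and 147 RPKM in controls 1 and 2 against 174, 180 and 173 RPKM in the 3 libraries labelled cKO. H2A genes had 50.2 and 53.6 RPKM against 72.2, 73.2 and 74.2 RPKM, the largest gap in RPKM of any class. H2B genes had 31.6 and 38.4 RPKM against 41.2, 47.3 and 47.5 RPKM. The libraries labelled cKO were higher in both. H4 genes were also higher, with 11.5 and 11.5 RPKM against 14.1, 17.5 and 14.2 RPKM. H3 genes were lower, with 7.0 and 6.72 RPKM against 6.00, 5.22 and 6.37 RPKM. H1 genes had 28.4 and 36.8 RPKM against 40.5, 37.2 and 30.3 RPKM and overlapped. The log2 ratios of the mean sums were 0.50 for H2A, 0.37 for H2B, 0.41 for H4, -0.23 for H3 and 0.14 for H1. All genes tested had a median of 0.14 on the log2(RPKM + 1) scale, and size factors that brought that median to 0.00 brought the ratios to 0.33, 0.21, 0.24, -0.40 and -0.02. Without control 1 the ratio was 0.24 for H2B and -0.03 for H1, without control 2 it was 0.34 for H1, and without cKO 2 it was -0.15 for H3.

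The class sums of control 3 were set beside the others as RPM, since 22 members had another exon length in its table. Hist1h4d, for example, had 9.51 RPKM in control 3 and 3.40 and 4.15 RPKM in controls 1 and 2, but 3.74, 3.87 and 4.73 RPM. RPM is not divided by length, but the bases over which reads were counted still differ. For Hist1h2bc they were 736 in control 3 and 1156 in the main table. The H2B sum of control 3 also holds Hist1h2be (1.29 RPM), whose reads were not recovered in the other libraries. The RPM sums of control 3 are therefore not fully comparable. As RPM, H2A genes had 37.3, 44.6 and 48.4 in controls 1 to 3 and 56.6, 61.6 and 52.0 in cKO libraries. H2B genes had 34.2, 42.7 and 32.2 against 47.4, 54.6 and 53.5 RPM. H3 genes had 8.26, 8.43 and 10.6 against 6.89, 6.04 and 7.57 RPM. These 3 classes stayed apart with control 3 added. H4 genes had 10.5, 10.9 and 18.7 against 12.8, 14.7 and 12.6 RPM and did not, and for H1 genes (45.8, 56.6 and 60.6 against 61.9, 58.2 and 44.9) the groups overlapped too. The log2 ratios of the mean RPM sums over all 6 libraries were 0.39 for H2A, 0.51 for H2B, -0.41 for H3, 0.02 for H1 and -0.0047 for H4.

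Genes of erythroid cells and genes the gate should exclude also differed between the groups in the main table. In its 5 libraries the 6 erythroid genes summed to 33.1 and 47.3 RPKM in the control pair against 183 to 862 RPKM in cKO libraries, with 4 of the 5 tested called in limma, and none was listed at 0. Hbb-bt, a beta globin gene, stood at 70.1, 103 and 27.5 RPKM in cKO libraries, and at 3.88, 5.27 and 148 RPKM in controls 1 to 3 (the exon length is the same in both tables), so control 3 had more of it than any cKO library. For the other cell types the groups overlapped: B cell markers summed to 13.4 to 18.7 RPKM in control against 16.8 to 43.3 in cKO, macrophage markers to 3.43 to 6.18 and 2.68 to 11.4 RPKM, and neutrophil markers to 1136 to 1935 and 1198 to 2039 RPKM. The 6 genes the gate should exclude summed to 8.46 to 8.92 RPKM in the control pair and 16.4 to 22.8 RPKM in cKO, and 2 of the 4 tested were called higher. These were Pecam1, which encodes CD31, with a log2 fold change of 1.70 (adjusted p = 0.0107 in limma) and Enpep, which encodes 6C3, with 0.99 (adjusted p = 0.0251 in limma). The gate and periosteal genes named above summed to 10901 to 13639 RPKM in controls 1 and 2 and 6671 to 7376 RPKM in cKO, with Postn called lower. Control 3 is not in that sum. As RPM over the same exon length, Col1a1 had 20369 in control 3, below the 40890 to 45368 of the cKO libraries. Controls 1 and 2 had 84778 and 66398 RPM of Col1a1. Postn had 6412 RPM in control 3, above every other library. The part of erythroid cells and of cells the gate should exclude in the histone values was not tested.

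Of the 70 members, 18 reached the mean of 1 RPKM needed for the test in PSCs. Adjusted p was under 0.05 for 1 of the 18, Hist1h4i, where 10.1% of the 11045 genes tested passed in limma (8.46% higher and 1.67% lower in cKO). The median log2 fold change of the 18 was 0.22, beside 0.14 for all genes, and 13 were above 0, where 68.1% of all genes were. Libraries did not overlap for 11 of them, 8 above and 3 below, where 45.8% of all genes did not overlap (35.6% above and 10.2% below). Of the 18, 5 had a mean under 1 RPKM in the control pair and reached the filter through the cKO libraries (Hist1h2ac, Hist1h4i, Hist1h4n, Hist2h2bb and Hist2h4), and 1 did so through the controls (Hist1h4c). A member that passed that way tends to differ by the filter itself, so these counts, the median and the call of Hist1h4i are a description of the members tested and support nothing further.

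**Figure D5:**
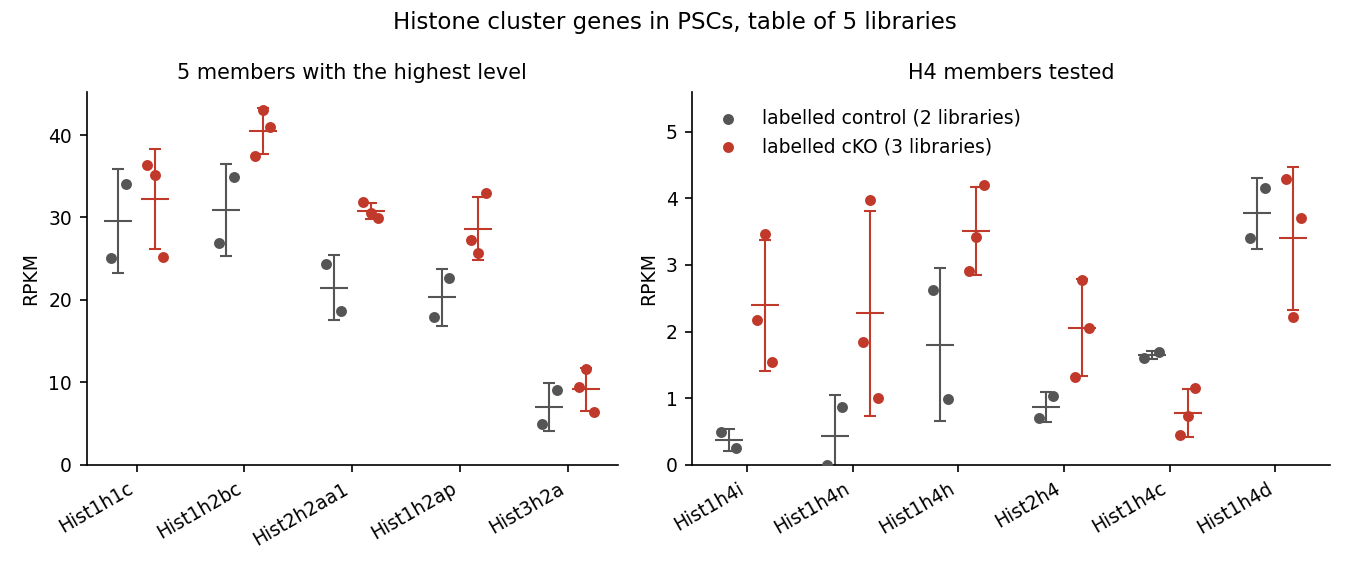
RPKM in each PSC library of the main table (points), with mean and SD (control n = 2, cKO n = 3), for the 5 members with the highest level (left) and the 6 H4 members tested (right). Hist2h2aa1, Hist1h2ap and Hist1h2bc are higher in all cKO libraries and Hist1h1c is not, and H4 members lie on either side.

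Hist1h4i, an H4 gene at chr13:22040636-22041362, had 0.484 and 0.255 RPKM in the control pair against 2.17, 3.46 and 1.54 RPKM in cKO libraries. This was 4 and 2 reads against 22, 25 and 13 reads, and control 3 had none. The log2 fold change on the log2(RPKM + 1) scale was 1.27 (SE 0.255, adjusted p = 0.0237 in limma), with all cKO libraries above all controls. The call did not hold in edgeR on reads recovered from the RPKM values (log2 fold change 2.48, adjusted p = 0.105) or over all 6 libraries in limma (1.42, adjusted p = 0.0620), and leaving out control 1, control 2 or cKO 1 gave adjusted p = 0.0820, 0.106 and 0.0630.

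The other H4 genes lay on both sides of 0 and none passed. Hist1h4n, whose coding sequence Hist1h4m shares, had 0 and 0.862 RPKM in control against 1.84, 3.98 and 1.0 RPKM in cKO. Hist1h4h had 2.62 and 0.986 RPKM against 2.90, 3.43 and 4.21 RPKM, and Hist2h4 had 0.701 and 1.02 RPKM against 1.32, 2.78 and 2.06 RPKM. In these 3 all cKO libraries were above controls 1 and 2. In control 3, Hist2h4 had 2.91 RPKM over the same exon length, above every cKO library. Hist1h4n had 0 RPKM there, and Hist1h4h, with another exon length, had 0.304 RPKM. Hist1h4c had 1.61 and 1.70 RPKM against 0.438, 0.737 and 1.15 RPKM, with all cKO libraries lower, and Hist1h4d, the H4 gene with the highest level, had 3.40 and 4.15 RPKM against 4.29, 2.21 and 3.70 RPKM. Adjusted p was between 0.106 and 0.715 in limma for these 5.

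The members with the highest level rested on more reads. Hist2h2aa1 had 162 and 118 reads in controls 1 and 2 against 260, 178 and 204 in cKO, or 24.3 and 18.7 RPKM against 31.9, 30.6 and 29.9 RPKM (log2 fold change 0.51, SE 0.133, adjusted p = 0.0509 in limma). Hist1h2ap had 17.9 and 22.7 RPKM against 27.3, 25.7 and 33.0 RPKM (0.48, SE 0.152, adjusted p = 0.0896 in limma). The cKO libraries stood above both controls in each of these H2A genes, and neither passed. In PSCs Hist2h2aa2 and Hist1h2al, which share nearly all of their sequence with Hist2h2aa1, were listed at 0 in every library. In control 3, the only library with a column of unique reads, none of 54 exon reads of Hist2h2aa1 and 14 of 39 of Hist1h2ap were unique. Over all members 81.0% of exon reads were unique there, against 95.7% over all genes.

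Hist1h2bc, the H2B gene with 2 annotated exons and no stem-loop in its transcript, had 26.9 and 34.9 RPKM in control against 37.5, 43.0 and 40.9 RPKM in cKO libraries (0.39, SE 0.138, adjusted p = 0.120 in limma). Hist1h1c had 25.1 and 34.0 RPKM against 36.4, 35.1 and 25.2 RPKM, with cKO 3 as low as control 1. Hist3h2a had 4.96 and 9.07 RPKM against 9.37, 11.6 and 6.37 RPKM. The groups overlapped for these last 2 genes. Among the H3 genes, Hist1h3e had 2.42 and 1.55 RPKM against 1.55, 0.843 and 1.34 RPKM and Hist1h3f had 2.02 and 1.91 RPKM against 1.59, 1.36 and 1.43 RPKM, both lower in all cKO libraries, though cKO 1 was close to control 2 for Hist1h3e, and neither called (adjusted p = 0.260 and 0.300 in limma). Hist1h1b and Hist2h2bb stood near 1 RPKM in both groups, with means of 1.16 and 1.51 RPKM for Hist1h1b and 0.961 and 1.04 RPKM for Hist2h2bb.

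Of the 21 genes of histone supply, 17 were tested in PSCs and 3 were called, all higher in the libraries labelled cKO, where 8.46% of all genes were called higher, and the list's median was 0.26, beside 0.14 for all genes. Slbp, the stem-loop binding protein, had 7.28 and 7.02 RPKM in controls 1 and 2 against 9.67, 11.0 and 11.6 RPKM in cKO (log2 fold change 0.53, SE 0.123, adjusted p = 0.0387 in limma). Cpsf3, the nuclease that cuts histone and other mRNA ends, had 8.06 and 8.48 RPKM against 14.1, 13.9 and 15.4 RPKM (0.74, adjusted p = 0.00940 in limma). Asf1b, a chaperone of H3 and H4, had 1.28 and 0.991 RPKM against 2.43, 2.80 and 2.39 RPKM (0.73, adjusted p = 0.0308 in limma). Slbp and Asf1b had the same exon length in the table of control 3, where they had 9.30 and 2.40 RPKM, above the other controls. For Asf1b this was within the range of the cKO libraries, and for Slbp below it. The length behind Cpsf3 in the main table was not resolved, so its control 3 value is not compared.

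Of the S phase and cycling genes, 21 of 23 were tested in PSCs and 1 was called, where 10.1% of all genes were. This was Mcm5 of the replicative helicase, with 2.58 and 2.92 RPKM in control against 4.33, 4.36 and 5.26 RPKM in cKO (log2 fold change 0.59, adjusted p = 0.0420 in limma). Control 3, with the same exon length for Mcm5, had 4.57 RPKM, within the range of the cKO libraries. The list's median was 0.29, beside 0.14 for all genes. Its sum was 72.1 and 84.0 RPKM in controls 1 and 2 against 91.8 to 106 RPKM in cKO libraries. Control 3 is in neither the median nor the sum, so these values do not separate all controls from cKO. Rrm1, a subunit of ribonucleotide reductase, had 6.05 and 4.88 RPKM against 8.91, 7.37 and 9.96 RPKM (adjusted p = 0.0553 in limma). As RPM over the same exon length, Rrm1 had 39.4 in control 3, within the 37.0 to 50.1 of the cKO libraries. Of the variants outside the clusters, 10 of 12 were tested, with a median of 0.20, and 1 was called, again beside 10.1% of all genes. This was H2afv, an H2A.Z gene, with 20.9 and 21.1 RPKM against 27.7, 27.5 and 28.7 RPKM (0.40, adjusted p = 0.0486 in limma), while control 3, with the same exon length, had 42.4 RPKM. H2afj had 6.29 and 7.59 RPKM against 12.1, 10.7 and 8.50 RPKM. As RPM over the same exon length, H2afj had 17.8 in control 3, within the 15.6 to 22.2 of the cKO libraries. None of the 7 genes of the PRMT5 pathway was called in limma and 2 had an unadjusted p under 0.05, where 27.7% of all genes had one. These were Riok1 with 2.57 and 1.97 RPKM against 3.19, 3.62 and 3.76 RPKM and Clns1a with 20.9 and 20.6 RPKM against 25.2, 25.7 and 26.7 RPKM. In both cell types, 15 members were tested, and 8 of them had the same sign in each.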

How the data were processed

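The osteoclast values were raw counts of reads per gene, as the authors deposited them, and had not been scaled. The same file holds the authors' own test (a p-value, an FDR and a signed fold change, the last kept as a score), which was not used. The PSC values were RPKM, which the authors had scaled to exon length and to mapped reads before deposit, beside other columns such as a deposited ratio of intron to gene reads, and the table of control 3 adds deposited counts of exon reads. Tools in the submitters' notes were kallisto 0.46.0, Trim Galore 0.6.4 and FastQC 0.1.1.8, with GRCm38 as the build. The aligner behind the RPKM, strand and the rule for reads that fit several genes were "not given in the sources used here". Per-sample columns left without a sample numbered 0.

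TMM-scaled osteoclast counts went into edgeR 4.0.16 (quasi-likelihood test, filterByExpr). PSC genes with at least 1 RPKM on average over the 5 libraries of the main table went into limma 3.58.1, as log2(RPKM + 1) with a mean-variance trend. DESeq2 1.42.0 served as an alternative. Benjamini-Hochberg adjustment covered all genes tested, tests were two-sided, and a gene was called at an adjusted p under 0.05. Exon reads were recovered from RPKM for 95.7% of 26128 detected genes, whole within 0.02 reads. Each test was checked on simulated data with a fixed noise setting, which for PSCs did not model members with few reads. Named members were those that passed, the 8 with the smallest unadjusted p in each cell type and the 2 with the highest level (per length in osteoclasts) in each class, and, from the lists of histone supply, variant and S phase genes, those that passed and the 2 with the smallest p. Members and lists were chosen with earlier results of these data known. Alternatives were other scalings, filters, pseudocounts and tests, a replicate block, and leaving out each library.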

Additional observations from a re-analysis of the deposited data

Results flagged for a closer look

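The report uses exon reads only, and 3 members had intron reads above what a count of 0 allows (3 reads) in control 3, the only library with that column. Hist1h2be had 23 intron reads beside 9 exon reads, Hist1h2bc had 7 beside 175, and Hist1h2bp had 5. These are among the 5 members annotated with more than 1 exon. With 1 library, no comparison between groups was possible.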

How the results depend on the processing

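In osteoclasts, the 1 member called in edgeR became 0 with at least 10 reads in every library, with near-identical copies summed (chosen after seeing the data) and with the replicate block (adjusted p = 0.0770 for Hist1h2al), and 2 with no filter on low counts, where Hist2h2bb_1 passed too. Leaving out a library gave 0 to 2 members; Hist1h2al was lost without control 2 (adjusted p = 0.0951) or cKO 3 (adjusted p = 0.0554), with log2 fold changes of 2.50 and 2.49. Where no member passed, 8 to 13 had an unadjusted p under 0.05. DESeq2 called 1 member. Over all genes, the 4 calls became 0 with at least 10 reads, 1 with copies summed, 46 with no filter, 0 with the replicate block and 0 to 9 with a library left out.

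In PSCs, the 1 member called became 0 in limma over all 6 libraries, in edgeR on recovered reads of 5 libraries and of 6 (the latter chosen after seeing the data) and with the replicate block over all 6 libraries, and was 0 or 1 with a library left out; 2 to 8 members then had an unadjusted p under 0.05. Without control 1 the member called was Hist2h2aa1 (adjusted p = 0.0495), and with no filter on low values it was Hist1h4k. Over all genes, the 1118 calls became 709 with DESeq2 size factors, 207 over all 6 libraries in limma, 199 in edgeR on recovered reads of all 6, 248 with no filter, 1 with the replicate block and 324 to 605 with a library left out. Log2 ratios of class sums with size factors were 0.33 (H2A), 0.21 (H2B), -0.40 (H3) and 0.24 (H4). From RPKM over all 6 libraries they were 0.57, 0.32, -0.58 and 0.044, where control 3 has another exon length for 22 members. As RPM they were 0.39, 0.51, -0.41 and -0.0047, with the reads of control 3 still counted over those other lengths. Leaving out a library gave 0.45 to 0.54 for H2A, 0.24 to 0.52 for H2B, -0.29 to -0.15 for H3, 0.30 to 0.46 for H4 and -0.03 to 0.34 for H1. The cause of these changes was not tested. Under the alternatives, 167 of 172 values of named osteoclast members and 176 of 185 of named PSC members kept their side of the threshold. Of these values, 0 were called in the opposite direction. Members that were not called could change sign, as Hist1h1c did in PSCs without control 1.

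Same-numbered libraries did not deviate together (r = -0.07 to 0.07), so the numbers do not pair the libraries. Histone copies share sequence, so reads of single members are uncertain. PSC members rest on few reads, and 11 had at least 10 in each of the 5 libraries.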
